A study of Mus musculus with 2 samples.

Results

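The cytosolic ribosomal protein genes encode the proteins of the 40S and 60S ribosomal subunits. Members were all genes with a symbol of Rpl or Rps followed by a number, plus Rplp0, Rplp1, Rplp2 and Rpsa, and they numbered 91 of the 34290 genes listed. There were 77 core members, 46 of the large subunit and 31 of the small subunit. The other 14 were paralogs, retrogenes and the look-alike Rps19bp1, which encodes a protein that binds Rps19 and is not part of the ribosome. Symbols that end in -ps (5) and the S6 kinases (10) were left out.

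The genes were read in tumours of MC38, a mouse colorectal cancer line, collected 21 days after engraftment into mice that received no treatment. One library came from tumours of MC38 cells with a TMEM16F knockout (TMEM16F KO), and 1 from tumours of MC38 cells carrying vector only (vector control). TMEM16F, encoded by Ano6, is a lipid scramblase of the plasma membrane, and its deletion was made in the engrafted cells. Whether the cells described below, stroma and unassigned cells above all, include engrafted cells was not tested. The labels give neither the number, age and strain of the mice nor whether tumours were pooled.

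A ribosome needs 1 copy of nearly every one of these proteins, so their messages are made in large and matched amounts. Many of the messages start with a run of pyrimidines, the 5′ terminal oligopyrimidine tract, through which mTOR signalling and the protein LARP1 set their translation and stability. In T cells, activation is known to raise ribosome production, while macrophages and granulocytes carry more of their RNA in secretory and lysosomal messages.

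The start of 68 of the 91 members matched a RefSeq promoter record on GRCm38.p6. The windows of 30 bases around the annotated start, 15 on each side, are given for members that the results below turn on: members whose TMEM16F KO to vector control ratio lay below the median over the members in all 9 classes (Rpl31, Rpl35, Rpl41, Rps28), members above it in all 9 (Rps9, Rpl23), and members among those that differ most between T cells and macrophages (Rps15a, Rpsa, Rps27, Rps27l). Capitals mark the longest uninterrupted run of C and T on the gene's strand.
Rpl31, chr1:39367836-39367865, plus strand: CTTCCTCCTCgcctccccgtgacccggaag
Rpl35, chr2:39005117-39005146, minus strand: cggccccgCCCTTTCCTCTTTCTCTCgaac
Rpl41, chr10:128549154-128549183, minus strand: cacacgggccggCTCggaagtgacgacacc
Rps28, chr17:33824548-33824577, minus strand: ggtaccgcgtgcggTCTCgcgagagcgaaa
Rps9, chr7:3704026-3704055, plus strand: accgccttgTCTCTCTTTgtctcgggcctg
Rpl23, chr11:97782425-97782454, minus strand: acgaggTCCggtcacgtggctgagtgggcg
Rps15a, chr7:118116133-118116162, minus strand: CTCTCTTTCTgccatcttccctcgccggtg
Rpsa, chr9:120127751-120127780, plus strand: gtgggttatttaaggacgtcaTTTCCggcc
Rps27, chr3:90213634-90213663, minus strand: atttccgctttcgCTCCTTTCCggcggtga
Rps27l, chr9:66946071-66946100, plus strand: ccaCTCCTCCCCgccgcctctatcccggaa
A run of at least 8 was found in 28 of the 68 members (41.2%) and in 3760 of the 27025 genes of the table (13.9%). A run was counted wherever it stood in the window, and those of Rpl31, Rps15a and Rps27l ended before the annotated start. The annotated start need not be the first base of the message, so a match or its lack describes only the letters in the window. Runs of 18 and 10 stood in Rpl35 and Rpl31, against runs of 3 and 4 in Rpl41 and Rps28, although all 4 lay below the members' median ratio in all 9 classes.

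There were 5993 barcodes and 49777630 UMIs in the TMEM16F KO library, against 5253 barcodes and 46338994 UMIs in the vector control library. The filter kept 5688 TMEM16F KO cells (median 5989.5 UMIs) and 5028 vector control cells (median 6034.5 UMIs). The kept cells numbered 10716 of 11246 barcodes, while the study states 10782 cells of 14 types. The libraries shared 10 barcode sequences. Classes were assigned from marker UMIs, and 18.9% of TMEM16F KO cells and 22.7% of vector control cells, with medians of 2091 UMIs in TMEM16F KO and 1535 UMIs in vector control cells, remained unassigned. The 9 classes that reached 50 cells in both libraries were compared. Outside the class rule, Nkg7, a lymphocyte granule gene, set CD8 T cells apart from macrophages. It had 3132 CPM in TMEM16F KO and 2647 CPM in vector control CD8 T cells, but 32.5 CPM in TMEM16F KO and 21.9 CPM in vector control macrophages. Nkg7 also had 869 CPM in CD4 T cells of each library, and 762 CPM in TMEM16F KO and 808 CPM in vector control regulatory T cells. The names of CD4 T, regulatory T and other T cells rest on the rule alone. Neutrophils (43 TMEM16F KO and 18 vector control cells) and B cells (11 in each library) were too few. Ano6 had 33.6 CPM (counts per 1000000 UMIs) in TMEM16F KO cells and 29.0 CPM in vector control cells. That value does not check the deletion, because the number of engrafted cells among the kept cells is not known and a 3′ count can persist after an upstream edit. Of 3 epithelial markers, Krt8 and Krt18 had 2 and 15 UMIs in the TMEM16F KO library and 0 and 11 in the vector control library. The third, Epcam, had 253 UMIs in TMEM16F KO and 285 in vector control cells, with 5.54 CPM in TMEM16F KO and 0 in vector control stroma, against 13.7 CPM in TMEM16F KO and 29.9 CPM in vector control regulatory T cells. With 1 library per group there was no replicate and no test, so differences between tumours or preparations cannot be told apart from the genotype. All intervals are exact, at 95%, and cover counting error only.

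Ribosomal protein messages made up 16.6% of all UMIs in TMEM16F KO cells and 19.6% in vector control cells. The median cell had 15.3% in the TMEM16F KO library and 18.4% in the vector control library. Of the members, 66 exceeded 1000 CPM in both libraries, all of them core genes. The highest on average was Rps2, a protein of the mRNA entry side of the small subunit, with 4366 CPM in TMEM16F KO cells and 5342 CPM in vector control cells. Next was Rpl23, a large subunit protein, with 4475 CPM in TMEM16F KO cells and 5093 CPM in vector control cells. Rpl13, Rps24 and Rps15a followed, between 3815 and 4140 CPM in TMEM16F KO cells and between 4310 and 5048 CPM in vector control cells. These are 3′ end counts and were not divided by transcript length.

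The low end held the paralogs. Rpl10l, the testis copy of Rpl10, had 0 UMIs in either library. The upper limits of its intervals were 0.0807 CPM in TMEM16F KO and 0.0853 CPM in vector control cells. Rps23rg1 had 2 UMIs in TMEM16F KO cells and 1 in vector control cells. Rpl27rt had 37 UMIs in TMEM16F KO and 43 in vector control cells. Rpl39l, the testis copy of Rpl39, had 53 UMIs in TMEM16F KO and 41 in vector control cells. Rpl3l, the heart and muscle copy of Rpl3, had 88 UMIs (1.92 CPM) in TMEM16F KO cells and 173 UMIs (4.00 CPM) in vector control cells. The lowest core member was Rpl13a with 123 CPM in TMEM16F KO cells and 146 CPM in vector control cells, and the next was Rpl31 with 382 CPM in TMEM16F KO and 540 CPM in vector control cells. Many members have near-identical processed copies in the mouse genome, and how shared reads were counted is not stated, so the levels of Rpl13a and of the retrogenes are uncertain.

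Across all kept cells, each of the 77 core members was lower in TMEM16F KO cells than in vector control cells, with ratios between 0.707 (Rpl31) and 0.955 (Rpl23a). The share was lower in all 9 classes. In macrophages it was 14.3% in TMEM16F KO cells (2155 cells) and 17.7% in vector control cells (2017 cells), a ratio of 0.811 (0.809 to 0.812). In monocytes it was 13.9% in TMEM16F KO and 16.3% in vector control cells (ratio 0.853). In dendritic cells it was 16.6% in TMEM16F KO and 18.0% in vector control cells (ratio 0.919).

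Lymphocytes had higher shares and ran the same way. CD8 T cells had a share of 22.6% in TMEM16F KO cells (986 cells) and 25.5% in vector control cells (737 cells), a ratio of 0.886 (0.884 to 0.888). The ratio was 0.848 in CD4 T cells (18.6% in TMEM16F KO, 22.0% in vector control), 0.926 in regulatory T cells (17.4% in TMEM16F KO, 18.8% in vector control) and 0.868 in other T cells (21.7% in TMEM16F KO, 25.1% in vector control). NK cells had the highest shares, 25.0% in TMEM16F KO and 26.5% in vector control cells, and the ratio nearest to 1 (0.943). In stroma the shares were 22.1% in TMEM16F KO (52 cells) and 25.7% in vector control cells (84 cells).

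**Figure D1:**
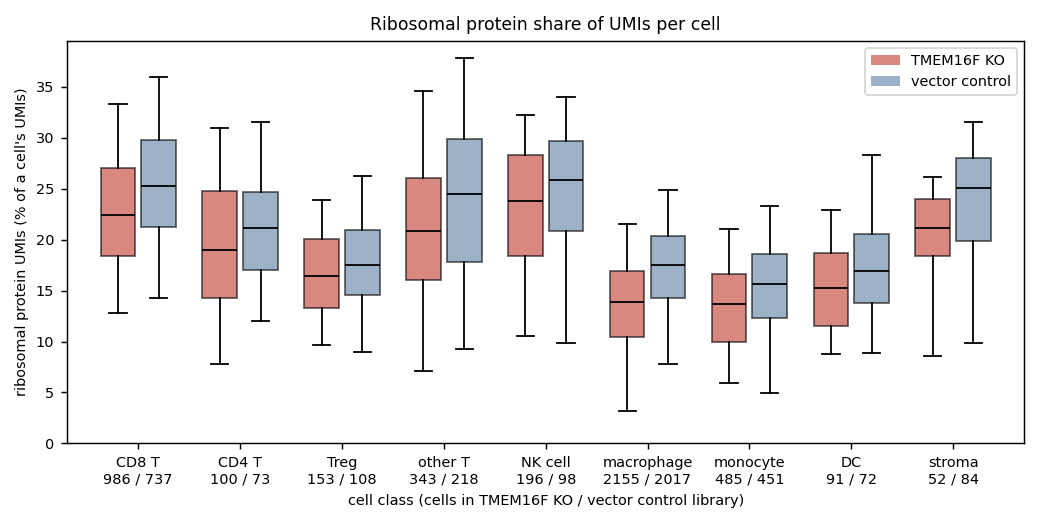
Share of each cell's UMIs that came from the 91 members (y axis, %), by class and library, with boxes at the quartiles, black lines at the medians and whiskers at the 5th and 95th percentiles. The TMEM16F KO median was below the vector control median in each of the 9 classes; the medians were lowest in monocytes (13.7% in TMEM16F KO, 15.7% in vector control) and highest in NK cells (23.8% in TMEM16F KO, 25.8% in vector control), while the boxes overlapped in each class.

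Several measures moved with the share. Macrophages had a median of 9954 UMIs in the TMEM16F KO library and 11168 in the vector control library, and 12.3% of TMEM16F KO and 30.3% of vector control macrophages carried UMIs of at least 3 cycling markers. Malat1, a nuclear RNA whose share is high in cells that have lost cytoplasm, had a median of 0.162% of UMIs in TMEM16F KO macrophages and 0.0721% in vector control macrophages. Within macrophages of at most 0.5% Malat1 the share ratio was 0.831, and without cycling cells the median was 13.7% in TMEM16F KO and 17.3% in vector control macrophages. The difference was widest in shallow macrophages: with up to 3000 UMIs the median was 5.82% in TMEM16F KO and 14.9% in vector control cells, and above 12000 UMIs it was 14.6% in TMEM16F KO and 18.0% in vector control cells. The shallow macrophages also differed in Malat1, with medians of 1.58% in TMEM16F KO (192 cells) and 0.120% in vector control cells (296 cells).

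Macrophages with under 8% ribosomal protein UMIs, a limit set after the data had been seen, numbered 321 in the TMEM16F KO library (14.9% of macrophages) and 106 in the vector control library (5.26%). They were shallow and rich in Malat1 in both libraries, with medians of 3582 UMIs and 2.31% Malat1 in TMEM16F KO and 3671 UMIs and 2.34% Malat1 in vector control cells. The remaining macrophages had medians of 0.106% Malat1 in TMEM16F KO and 0.063% in vector control cells. In each Malat1 bin of macrophages and of CD8 T cells the TMEM16F KO median was lower, although in the top bin of CD8 T cells, with 9 TMEM16F KO and 5 vector control cells, the pooled share was higher (11.6% in TMEM16F KO, 8.49% in vector control). In monocytes above 4% Malat1 the median was 4.38% in TMEM16F KO and 2.42% in vector control cells (16 cells each), and from 2% to 4% it was 7.26% in TMEM16F KO and 7.22% in vector control cells. The part of cell quality in the difference was not tested.

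**Figure D2:**
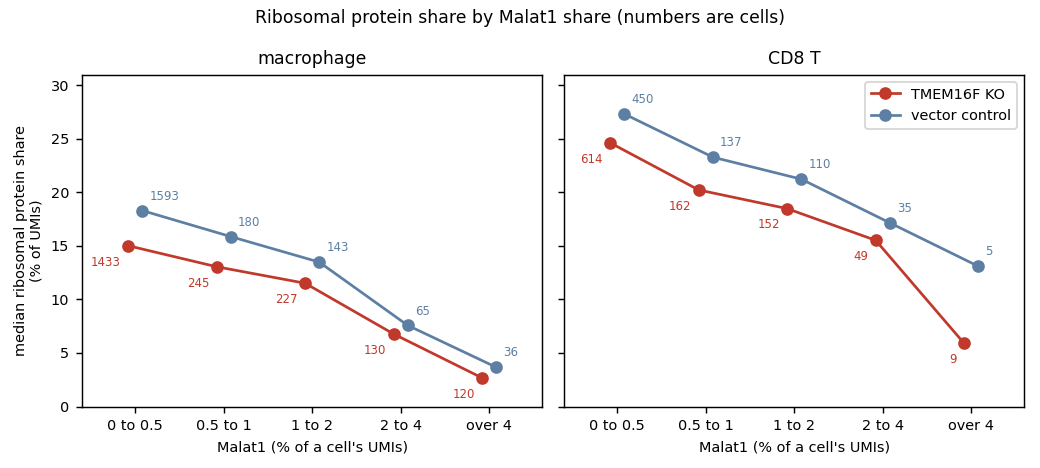
Median share of UMIs from the members (y axis, %) in cells binned by the share of UMIs from Malat1 (x axis, %), for macrophages (left) and CD8 T cells (right), with the number of cells beside each point. In macrophages of at most 0.5% Malat1 the median was 15.0% in TMEM16F KO and 18.3% in vector control cells, and in CD8 T cells 24.6% in TMEM16F KO and 27.3% in vector control cells; both lines fall toward high Malat1.

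CD8 T cells had nearly equal Malat1 medians, 0.287% in TMEM16F KO and 0.297% in vector control cells, and 18.8% of TMEM16F KO against 28.6% of vector control CD8 T cells were cycling. The share was lower in both states: the median was 19.8% in TMEM16F KO and 23.8% in vector control cells among cycling CD8 T cells, and 23.1% in TMEM16F KO and 25.7% in vector control cells among the others. CD8 T cells marked by the killing protease Gzmb had 22.2% in TMEM16F KO (532 cells) and 24.8% in vector control cells (349 cells). This subset was defined after the data had been seen.

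Phagocyte RNA in the T cells also moved with the share. The 10 phagocyte markers, among them Csf1r, Adgre1, Fcgr1, Cd68, Lyz2 and Apoe, summed to 2753 CPM in TMEM16F KO and 1387 CPM in vector control CD8 T cells. All 10 were higher in the TMEM16F KO library and none was at 0. The ratio was higher in CD4 T cells, at 3478 CPM in TMEM16F KO and 1127 CPM in vector control cells (3.09-fold), and in stroma, at 2700 CPM in TMEM16F KO and 1237 CPM in vector control cells (2.18-fold). Other T cells had a ratio of 1.85, regulatory T cells 1.72 and NK cells 1.36. The NK sums were 3272 CPM in TMEM16F KO and 2409 CPM in vector control cells. Most of each was Tyrobp, with 1734 CPM in TMEM16F KO and 1691 CPM in vector control NK cells. In NK cells 8 of the 10 markers were higher in TMEM16F KO. The lysozyme gene Lyz2 alone had 1361 CPM in TMEM16F KO and 695 CPM in vector control CD8 T cells. In NK cells Lyz2 had 811 CPM in TMEM16F KO and 374 CPM in vector control cells. Macrophages, which have a lower ribosomal protein share, had 14989 CPM of Lyz2 in TMEM16F KO and 10675 CPM in vector control cells. In CD8 T cells without a UMI of the 6 markers that define phagocytes, the share ratio was 0.891. The part of phagocyte RNA in the remaining difference was not tested.

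In stroma, CD4 T cells and regulatory T cells the direction was not the same at each depth. Stroma had a median of 8914 UMIs in TMEM16F KO and 25013.5 in vector control cells. Its share was higher in TMEM16F KO in each of the 3 depth bins up to 12000 UMIs, with 4 to 15 cells per library and bin. Up to 3000 UMIs the median share was 20.4% in TMEM16F KO and 15.5% in vector control cells, and above 12000 UMIs it was 22.5% in TMEM16F KO and 26.7% in vector control cells. Cycling cells numbered 17 of 52 in TMEM16F KO and 56 of 84 in vector control stroma. Among the other stromal cells the median share was 21.2% in TMEM16F KO (35 cells) and 18.0% in vector control cells (28 cells), the opposite direction, while their pooled share was 22.1% in TMEM16F KO and 23.5% in vector control cells. CD4 T cells of 3000 to 6000 UMIs had 19.2% in TMEM16F KO and 18.8% in vector control cells, and regulatory T cells of 6000 to 12000 UMIs had 19.4% in TMEM16F KO and 18.1% in vector control cells. The bins whose values are given held between 12 and 59 cells per library. Cycling dendritic cells also had a higher share in TMEM16F KO, with a median of 18.5% (15 cells) against 17.5% in vector control cells (13 cells). Their pooled share was 19.2% in TMEM16F KO and 18.6% in vector control cells.

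A member was counted as lower in a class when its CPM was at least 20% under that of vector control cells, and as higher when at least 25% over it, which is the same fold either way. Only genes with at least 200 UMIs in the class over both libraries were counted, and 5 of the 91 members reached that number in no class. In macrophages 43 of 86 members were lower by this limit, against 11.6% of all genes tested, and 0 were higher, against 13.8%. In monocytes 20 of 84 were lower, against 5.55% of all genes, and 1 (Rps4l) was higher, against 11.8%. CD8 T cells had 11 of 85 lower, against 8.82%, and 0 higher, against 12.4%. Other T cells had 12 of 80 lower, against 8.3%, and 0 higher, against 16.5%.

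In the smaller classes the part of members that was lower was not far above that of all genes, or was under it. It was somewhat above in CD4 T cells, dendritic cells and stroma, and under in regulatory T cells and NK cells. The count was 25 of 79 in CD4 T cells (24.9% of all genes), 6 of 80 in regulatory T cells (8.44%) and 9 of 80 in dendritic cells (9.22%). In stroma it was 15 of 83 (14.3%) and in NK cells 1 of 80 (7.39%). Among all genes with at least 1000 UMIs, 25.6% were lower in CD4 T cells, 4.82% in regulatory T cells, 8.82% in dendritic cells, 10.7% in stroma and 5.63% in NK cells. At that depth it was 4.27% in CD8 T cells, 8.58% in other T cells, 9.14% in macrophages and 5.03% in monocytes. The member counts above were not held to that depth. No member was higher by the limit in any of these 5 classes, where 23.5% of all genes were higher in CD4 T cells, 9.93% in regulatory T cells, 11.4% in dendritic cells, 15.5% in stroma and 19.8% in NK cells. The members' median log2 ratio ran from −0.09 in NK cells to −0.32 in macrophages, against −0.10 in CD4 T cells to 0.03 in monocytes for all genes tested. Large and small subunit members had nearly the same median, −0.32 each in macrophages and −0.17 each in CD8 T cells.

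**Figure D3:**
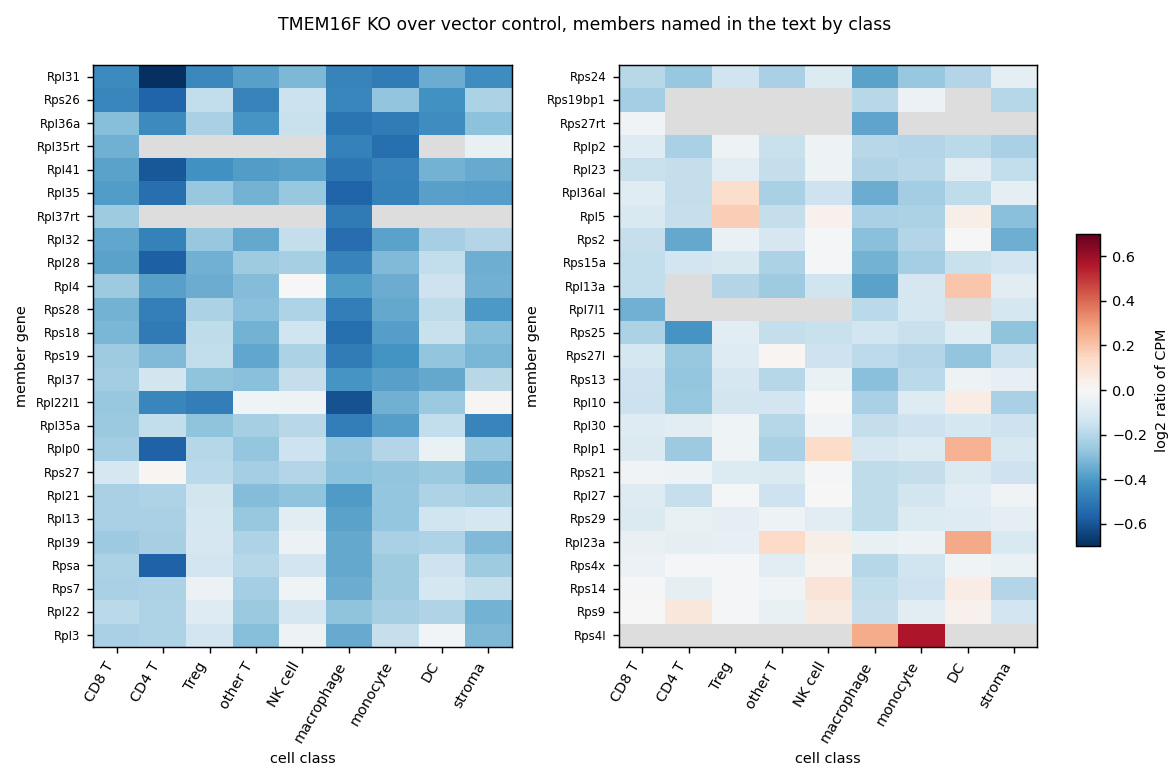
Log2 ratio of CPM, TMEM16F KO over vector control (colour), for 50 members (rows, those named in the text, ordered by their median over classes from the lowest at top left) in each class (columns); grey marks members with under 200 UMIs in the class. Blue, lower in TMEM16F KO, covers 389 of the 413 values shown, against 697 of 737 over the members tested, Rpl31 heads the list with values between −0.71 and −0.31, and the strongest red is Rps4l in monocytes at 0.56.

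Members did not all differ by the same amount. The classes are not independent here, since all came from the same 2 libraries. Of the 79 members tested in all 9 classes, 57 were lower in each. Below the members' median in all 9 classes lay 11 members, among them Rpl31, Rpl36a, Rpl41, Rpl35, Rpl28, Rps28 and Rps19. Another 12 lay above it in all 9, among them Rpl23, Rpl30, Rps21, Rpl27, Rps29, Rpl23a, Rps4x, Rps14 and Rps9.

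Rpl41, the smallest ribosomal protein and a short basic peptide, passed the limit in all 9 classes. In 3 of them the call ended under at least 1 alternative: without cycling cells the ratio was 0.853 in regulatory T cells and 0.809 in NK cells, and as a mean over cells it was 0.822 in stroma. It had 2183 CPM in TMEM16F KO and 3105 CPM in vector control macrophages (ratio 0.703), and 2632 CPM in TMEM16F KO and 3417 CPM in vector control CD8 T cells (ratio 0.770). In NK cells it had 2944 CPM in TMEM16F KO and 3815 CPM in vector control cells (ratio 0.772), and there it was the only member past the limit.

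Rpl31 and Rpl35 sit at the rim of the tunnel through which the new protein leaves. Rpl31 had 380 CPM in TMEM16F KO and 526 CPM in vector control macrophages (ratio 0.724). It had 394 CPM in TMEM16F KO and 536 CPM in vector control CD8 T cells (ratio 0.735). It passed the limit in 8 classes, all but NK cells (ratio 0.805), but in cells of 3000 to 12000 UMIs its ratio was 0.902 in regulatory T cells, and at low Malat1 0.806 in other T cells. Rpl35 had 862 CPM in TMEM16F KO and 1272 CPM in vector control macrophages (ratio 0.678) and passed in 7 classes, in 5 of them under every alternative that gave a value. Rpl23a, the exit tunnel protein on which the signal recognition particle docks, did not share this: it had 790 CPM in TMEM16F KO and 819 CPM in vector control macrophages (ratio 0.965), and its ratio was 1.20 in dendritic cells.

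Among other large subunit members, Rpl4, whose loop lines the exit tunnel, had 419 CPM in TMEM16F KO and 550 CPM in vector control macrophages (ratio 0.761), but 703 CPM in TMEM16F KO and 702 CPM in vector control NK cells. Rpl32, Rpl28 and Rpl36a each passed in 5 classes, with macrophage ratios of 0.691, 0.723 and 0.702. Under every alternative that gave a value, Rpl32 passed in 4 classes, Rpl28 in 2 and Rpl36a in 3. The stalk protein Rplp1, which recruits elongation factors, was near the other end, with 3594 CPM in TMEM16F KO and 3899 CPM in vector control macrophages (ratio 0.922). It was 5269 CPM in TMEM16F KO and 4824 CPM in vector control NK cells (ratio 1.09). Rpl5, which binds 5S rRNA and can hold Mdm2, had a ratio of 0.855 in macrophages. In regulatory T cells its ratio was 1.13, but 0.859 in cells with no UMI of the phagocyte markers.

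In the small subunit, Rps26 and Rps28, neighbours at the mRNA exit, passed in 5 classes each, and in 4 of those under every alternative that gave a value. Rps26 had 2201 CPM in TMEM16F KO and 3022 CPM in vector control CD8 T cells, the lowest ratio of any member there (0.728). In human patients, loss of 1 copy of RPS19, RPS26 or RPL35A is known to cause Diamond-Blackfan anaemia. Rps19 had a macrophage ratio of 0.713 and Rpl35a one of 0.714.

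Rps9, Rps14 and Rps4x lay nearest to equal levels over the classes. Rps9, a protein of the decoding side of the small subunit, had 3801 CPM in TMEM16F KO and 3814 CPM in vector control CD8 T cells (ratio 0.997, interval 0.980 to 1.01). In macrophages it had 2829 CPM in TMEM16F KO and 3163 CPM in vector control cells (ratio 0.894). Rps4x had 4756 CPM in TMEM16F KO and 4896 CPM in vector control CD8 T cells (ratio 0.972). Rps18, also of the small subunit, had 1579 CPM in TMEM16F KO and 2273 CPM in vector control macrophages (ratio 0.695).

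The paralogs and retrogenes split into those that followed their partner and those that did not. The retrogene Rpl35rt had 57.2 CPM in TMEM16F KO and 79.3 CPM in vector control macrophages (ratio 0.721), near the 0.678 of Rpl35. Rpl37rt had a macrophage ratio of 0.709, near the 0.751 of Rpl37, and Rps27rt one of 0.775, near the 0.820 of Rps27. Reads of a retrogene and its parent cannot be told apart with confidence in these counts.

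Rpl22l1, the paralog of Rpl22 that is known to take its place in the large subunit, was the lowest member in macrophages. It had 300 CPM in TMEM16F KO and 459 CPM in vector control macrophages (ratio 0.655, interval 0.635 to 0.675), while Rpl22 had 1391 CPM in TMEM16F KO and 1690 CPM in vector control macrophages (ratio 0.823). In regulatory T cells Rpl22l1 had 504 CPM in TMEM16F KO and 705 CPM in vector control cells (ratio 0.716), against 0.940 for Rpl22. In stroma Rpl22l1 had 324 CPM in TMEM16F KO and 322 CPM in vector control cells.

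Rps4l, a gene like Rps4x, was the only member tested with a ratio above 1 in macrophages, and likewise in monocytes. It had 27.0 CPM in TMEM16F KO and 22.5 CPM in vector control macrophages (ratio 1.20), and 40.7 CPM in TMEM16F KO and 27.5 CPM in vector control monocytes (ratio 1.48). Rps27l, the p53-inducible paralog of Rps27, had 507 CPM in TMEM16F KO and 575 CPM in vector control macrophages (ratio 0.882). Its highest level was in dendritic cells, with 1041 CPM in TMEM16F KO and 1263 CPM in vector control cells. Rpl36al had a macrophage ratio of 0.786, against 0.702 for its partner Rpl36a, and Rpl7l1 and Rps19bp1 had 0.878 and 0.875.

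The second comparison set T cells (all 4 T classes, 1582 TMEM16F KO and 1136 vector control cells) against macrophages within each library. The share was 21.9% in T cells and 14.3% in macrophages of the TMEM16F KO library (ratio 1.53, 1.52 to 1.53). In the vector control library it was 24.7% in T cells and 17.7% in macrophages (ratio 1.40). Of the 86 members tested, 57 were at least 25% higher in T cells in both libraries, against 40.2% of all genes tested, and 3 were at least 20% lower in both, against 25% of all genes. The members' median log2 ratio was 0.57 in the TMEM16F KO library, against 0.21 for all 8432 genes tested, and 0.46 in the vector control library, against 0.19. With the ratios divided by that of the median gene, 37 members were higher in both libraries, against 30.2% of all genes on that scale.

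Rps15a, a small subunit protein, had the widest gap. It had 6890 CPM in T cells and 2674 CPM in macrophages of the TMEM16F KO library (2.58-fold), and 7809 CPM in T cells and 3370 CPM in macrophages of the vector control library (2.32-fold). Rpsa, the small subunit protein also known as the laminin receptor, had 5051 CPM in T cells and 2124 CPM in macrophages of the TMEM16F KO library (2.38-fold). In the vector control library it had 5928 CPM in T cells and 2722 CPM in macrophages (2.18-fold). Both ratios exceeded those of every other member in each library.

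Rps27 had 1561 CPM in T cells and 804 CPM in macrophages of the TMEM16F KO library (1.94-fold), and 1711 CPM in T cells and 980 CPM in macrophages of the vector control library (1.74-fold). Its retrogene Rps27rt had almost the same ratios, 2.02 in the TMEM16F KO library and 1.71 in the vector control library. Rps7, Rpl21, Rps24 and Rps13 lay between 1.85-fold and 1.93-fold in the TMEM16F KO library and between 1.68-fold and 1.72-fold in the vector control library.

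Rps27l ran opposite to its partner Rps27. It had 284 CPM in T cells and 507 CPM in macrophages of the TMEM16F KO library (ratio 0.560), and 308 CPM in T cells and 575 CPM in macrophages of the vector control library (ratio 0.535). Rps4l had a ratio of 0.341 in TMEM16F KO and 0.427 in vector control tumours, whereas Rps4x had 1.60 in TMEM16F KO and 1.44 in vector control tumours. Rps19bp1 had 0.685 in TMEM16F KO and 0.662 in vector control tumours. Below 1 in both libraries, but short of the limit in at least 1 of them, were members that include Rpl7l1, Rps29 and Rps25. Rps29, a small zinc-binding protein, had 1960 CPM in T cells and 2082 CPM in macrophages of the TMEM16F KO library, and 2075 CPM in T cells and 2354 CPM in macrophages of the vector control library. Rpl22l1 and Rpl22 were both higher in T cells, with ratios of 1.95 and 1.36 in TMEM16F KO tumours and of 1.52 and 1.28 in vector control tumours.

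**Figure D4:**
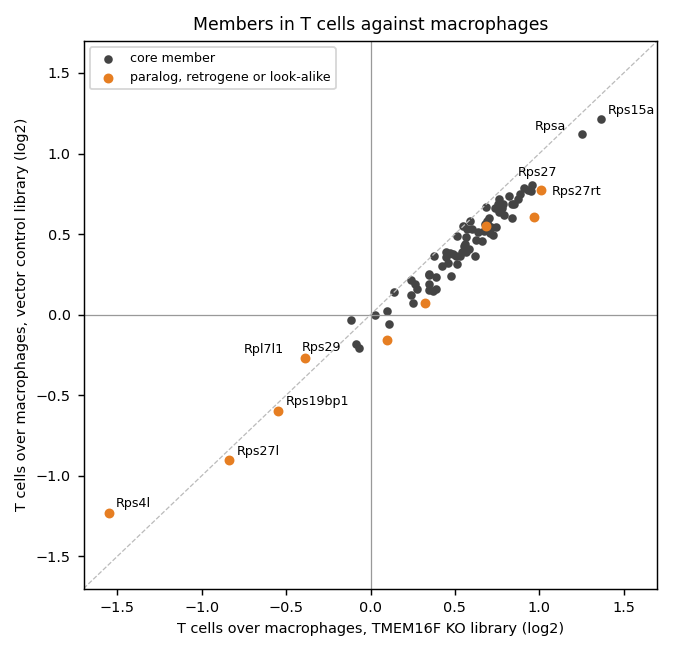
Log2 ratio of CPM, T cells over macrophages, in the TMEM16F KO library (x axis) and in the vector control library (y axis), 1 point per member tested, with the dashed line at equality. Most members lie above 0 on both axes, Rps15a and Rpsa at the upper right, and Rps4l, Rps27l and Rps19bp1 at the lower left below −0.5.

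Pearson's r between the libraries over the 86 members was 0.98, as a description, since the members share libraries, cells and scaling. Other genes of the translation system were taken from fixed lists. Fau, which encodes the small subunit protein eS30 fused to a ubiquitin-like protein, had 5887 CPM in TMEM16F KO and 5896 CPM in vector control CD8 T cells. In macrophages it had 3705 CPM in TMEM16F KO and 4302 CPM in vector control cells. Rack1, a scaffold protein on the small subunit, had 978 CPM in TMEM16F KO and 1234 CPM in vector control macrophages (ratio 0.793).

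Of 16 translation factors and partners whose messages carry the same 5′ tract, 15 were lower in TMEM16F KO macrophages (2 past the limit, against 11.6% of all genes, median log2 ratio −0.20) and 15 in CD8 T cells (0 past, against 8.82%, median −0.11). The exception in both was Tpt1, which encodes the translationally controlled tumour protein, with 8436 CPM in TMEM16F KO and 6904 CPM in vector control CD8 T cells (ratio 1.22). The elongation factor Eef1a1 had 4221 CPM in TMEM16F KO and 4735 CPM in vector control macrophages (ratio 0.892). In regulatory T cells 10 of 15 tested were higher in TMEM16F KO, with a median of 0.04, while the ribosomal proteins there had a median of −0.12.

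The genes of ribosome biogenesis make and fold ribosomal RNA. With cycling cells included, their medians were near those of the ribosomal proteins in macrophages and below them in CD8 T cells. In macrophages 18 of 19 tested were lower in TMEM16F KO, 10 past the limit, against 11.6% of all genes, with a median log2 ratio of −0.33. In CD8 T cells 16 of 17 were lower, 8 past the limit, against 8.82% of all genes, with a median of −0.31. The nucleolar protein gene Ncl had 249 CPM in TMEM16F KO and 334 CPM in vector control macrophages (ratio 0.745), and 423 CPM in TMEM16F KO and 546 CPM in vector control CD8 T cells (ratio 0.775). Without cycling cells the medians were −0.21 in macrophages (7 of 18 past the limit, against 6.21% of all genes) and −0.19 in CD8 T cells (1 of 12 past the limit, against 6.41%).

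Of 78 mitochondrial ribosomal protein genes, 75 were lower in TMEM16F KO macrophages (12 past the limit, against 11.6% of all genes, median −0.17), and 66 of 73 tested were lower in CD8 T cells (9 past the limit, against 8.82%, median −0.15). These counts past the limit are near those of all genes. Without cycling cells their medians were −0.12 in macrophages and −0.09 in CD8 T cells. Of the p53 targets, which the transcription factor p53 raises, 7 of 8 tested were higher in TMEM16F KO macrophages (4 past the limit, against 13.8% of all genes) and 5 of 5 in CD8 T cells (3 past the limit, against 12.4%), with a median of 0.35 in each. Cdkn1a, the cell cycle inhibitor p21, had 580 CPM in TMEM16F KO and 417 CPM in vector control macrophages (ratio 1.39). Among CD8 T cells it had 220 CPM in TMEM16F KO and 126 CPM in vector control cells (ratio 1.74). Without cycling cells the medians of the p53 targets were 0.19 in macrophages (5 tested) and 0.29 in CD8 T cells (4 tested). In each class 2 were past the limit, against 12.1% of all genes in macrophages and 12.3% in CD8 T cells, where 1 was lower. Fewer genes were tested than with cycling cells included, so the medians are not of the same genes.

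**Figure D5:**
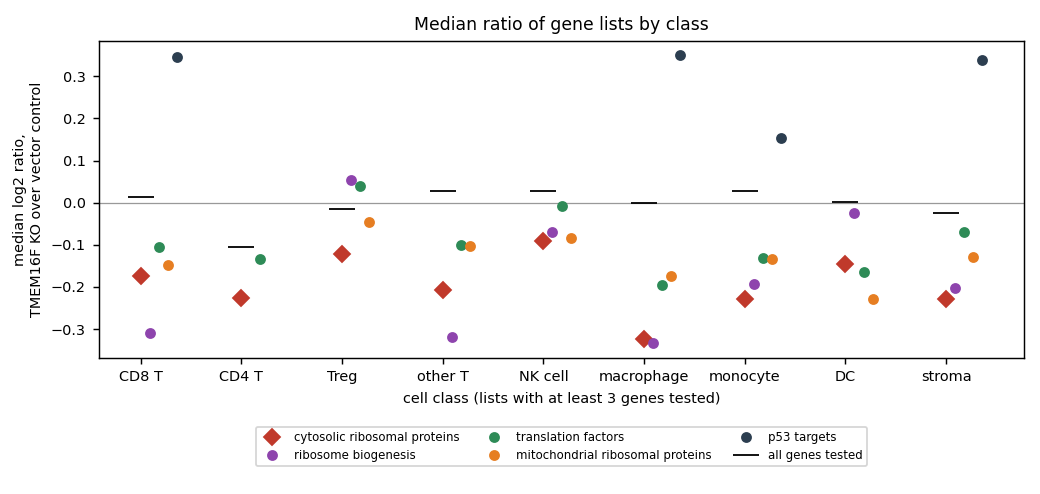
Median log2 ratio, TMEM16F KO over vector control (y axis), of the members and of 4 other gene lists in each class (x axis), with black bars at the median of all genes tested and lists shown where at least 3 of their genes were tested. The members (diamonds) lie below 0 in all 9 classes and lowest in macrophages at −0.32, ribosome biogenesis lies at −0.33 in macrophages and −0.31 in CD8 T cells, and the p53 targets lie above 0 wherever shown.

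In all classes but regulatory T cells and stroma, short messages outside the members had lower ratios than long ones. The members' transcripts had a median of 886 bases, from 345 to 5179, for the 89 with a length. In macrophages, other genes above 100 CPM had a median log2 ratio of −0.17 with transcripts up to 700 bases (96 genes), −0.05 from 700 to 1500 bases (366 genes) and 0.11 above 4000 bases (179 genes). Macrophage members of the same length were lower still, at −0.36 up to 700 bases (27 members) and −0.29 from 700 to 1500 bases (45 members). In CD8 T cells the other genes of up to 700 bases had −0.06 and members −0.17. The gap between members and other genes of the same length was not as wide in all classes. Up to 700 bases, NK cells had −0.12 for members and −0.14 for other genes, and dendritic cells −0.18 for members and −0.16 for other genes. Above 4000 bases the other genes had 0.27 in NK cells and 0.10 in dendritic cells. In regulatory T cells other genes had −0.03 up to 700 bases and −0.05 above 4000, and in stroma −0.04 in both bins. The part of transcript length in the difference was not tested.

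Members with a run of at least 8 had a median log2 ratio of −0.35 in macrophages (27 tested) and members without one −0.29 (37 tested), and in CD8 T cells the medians were −0.18 with a run and −0.17 without. In monocytes they were −0.26 with a run and −0.21 without, in dendritic cells −0.17 and −0.10, and in stroma −0.23 and −0.24.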

How the data were processed

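The 10x Genomics 3′ (version 3.1 kit) single-cell libraries, 1 per group, were used as deposited: whole UMI counts per gene and barcode, not normalised; the file headers name Cell Ranger 8.0.0 as the writer. The submitters' processing notes list build mm10 and Seurat 3.1.1; no source used here gives the annotation or the treatment of shared reads. Groups came from the genotype label.

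Barcodes needed 200 genes and under 20% mitochondrial UMIs, which removed 18 TMEM16F KO and 4 vector control barcodes. Scrublet (scanpy 1.11.5) marked 0 and 0 barcodes with its automatic threshold and so did not work here; instead, top-scoring barcodes were removed at 0.8% per 1000 barcodes (287 and 221). A cell took the class with at least 3 UMIs of at least 2 markers and 2 times the UMIs of the next class; T cells and phagocytes were then split by single markers. Macrophages and monocytes form a range cut by the balance of their markers, with 182 of 2640 TMEM16F KO and 135 of 2468 vector control phagocytes near it. No clustering was used, so class names rest on these rules and may differ from the study's.

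UMIs were summed per class and library and divided by the total (CPM for genes, percent for shares). Shares have exact binomial intervals and ratios exact conditional binomial intervals at 95%. No test was run. The ratio step was checked on simulated data. Named genes were the 5 highest and 5 lowest members, the 3 extremes per class, members past the fold limit (25% higher or 20% lower) in at least 5 of the 9 classes, the 8 extremes of T cells against macrophages, all paralogs with their partners, and genes of the lists. The members, markers and lists (translation factors, ribosome biogenesis, mitochondrial ribosomal proteins, p53 targets) were chosen with earlier results of these data known. Some members, markers and subsets are not reported here. The tools were Python 3.11.15, numpy 2.4.6, scipy 1.17.1, pandas 2.3.3 and matplotlib 3.10.9.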

Additional observations from a re-analysis of the deposited data

How the results depend on the processing

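No paired analysis was possible because each group has 1 library and no value comes from a test; for the same reason no replicate could be left out. The direction of each share ratio was kept under all alternatives, and the share was lower in TMEM16F KO in every class that kept 50 cells. Of the alternative values of the main results, 69 stayed within the counting interval, or within 1.5 times for counts, and 33 moved beyond it; the intervals are narrow because many UMIs were summed. The share ratio, TMEM16F KO over vector control, ranged from 0.853 to 0.905 in CD8 T cells and from 0.779 to 0.831 in macrophages.

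In the order CD8 T cells, macrophages, T cells over macrophages in TMEM16F KO, and the same in vector control, the ratios were 0.879, 0.814, 1.48 and 1.37 with no barcode left out as a doublet; 0.890, 0.816, 1.54 and 1.41 under a stricter class rule; 0.853, 0.779, 1.68 and 1.53 with members, mitochondrial and haemoglobin genes out of the denominator; 0.890, 0.785, 1.59 and 1.40 as means over cells; and 0.905, 0.831, 1.56 and 1.44 in cells of at most 0.5% Malat1, chosen after seeing the data. The ratios that moved were 0.889 (CD8 T cells), 1.57 and 1.43 (T cells over macrophages) in cells of 3000 to 12000 UMIs, 0.889, 1.57 and 1.45 without cycling cells, and 0.891, 1.55 and 1.42 in cells outside the phagocytes with no UMI of the phagocyte markers, also chosen after seeing the data. Without the paralogs, T cells over macrophages came to 1.53 and 1.40, and 0 members were lower in T cells in both libraries, against 3, since all 3 are among those left out. With ratios divided by the median ratio 37 members were higher in T cells in both libraries, against 57.

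In macrophages 31 members were at least 20% lower in cells of at most 0.5% Malat1, against 43. In CD4 T cells the count was 25, but 7 as means over cells, 9 at low Malat1, 14 with median scaling, 15 without cycling cells and 16 among genes of at least 1000 UMIs. In stroma it was 15, but 32 with members out of the denominator, and in dendritic cells 9, but 20 without cycling cells. Among all genes of at least 1000 UMIs in CD4 T cells, 25.6% were lower by the limit. For the other alternatives in this paragraph the share of all genes is not given. Those counts show only how the number of members moved. Depth limits the classes under 500 cells, where most genes have too few UMIs to be compared.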
